A study of Mus musculus with 64 samples.

Results

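Gene expression in gonadal fat was compared between 3 humanized males (HUMM) and 3 humanized females (HUMF), over the genes that lie on autosomes. The members were the 6 libraries so labelled, out of 64 samples in the series, and 15926 autosomal genes among the 17394 genes with enough signal to test. All mice were 129S6/SvEvTac animals given inorganic arsenic at 400 ppb for 4 weeks, so no unexposed group stands behind these values, and both humanized groups carry the human ortholog of AS3MT, the enzyme that methylates arsenic. Wild type (WT) animals of the same strain and exposure, 3 females (WTF) and 2 males (WTM), were read beside them as a second pair. The WT pair shares no library with the humanized pair, but both were fitted together and share the estimate of the spread. The labels give no age, no animal identity and no site of transgene expression, and p-values therefore measure only the spread between these samples.

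Gonadal fat is not the same pad in the sexes. In males it hangs on the epididymis and in females it lies along the ovary, the oviduct and the uterine horn. The Hox genes encode transcription factors that stand in 4 clusters and are switched on in the order of their position, so that the high-numbered genes mark the rear end of the body and the parts of the reproductive tract. Fat cells and their precursors keep much of this positional code in the adult, and fat pads from different sites are known to differ in it. White fat also reads sex steroids through the estrogen, progesterone and androgen receptors, and it makes or breaks down steroids itself.

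Values are the normalized signal deposited for each library, given in the order of replicates 4, 5 and 6. The mouse genes checked the labels. As3mt stood at 5.33, 0.889 and 0 in humanized females and at 2.79, 2.01 and 3.93 in humanized males, against 1218 to 1737 in the 5 WT libraries, and neighbouring Borcs7 followed the same split. Xist was at 56944 to 62874 in humanized females and at 6.01 to 7.56 in humanized males, and Ddx3y at 0, 0 and 2.18 against 7903, 8434 and 8319. The libraries summed to 83100312 to 90417259 units of signal, with 20906 to 21926 genes above 0. Read numbers are unknown for these libraries. The labels give total RNA as the molecule and cite a protocol known for chromatin run-on sequencing, so whether the signal is that of mature mRNA was not settled.

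Humanized male replicate 4 stood apart from the other humanized males before any comparison. Its macrophage marker sum was 592026 against 197957 and 220949 in replicates 5 and 6, its cell cycle sum was 27607 against 7177 and 9678, and its mesothelial sum was 10359 against 30894 and 43001. Its adipocyte sum was also the lowest of all 11 libraries, at 3291440. Among WT libraries, female replicate 4 was high in the list of brown fat genes and male replicate 5 in red blood cell genes, and female replicate 5 held a Y-linked trace, with Ddx3y at 220. In bulk tissue, fewer cells of a type and less RNA per cell cannot be told apart, and this holds for every marker list here.

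Of the 15926 autosomal genes, 11 (0.0691%) differed between humanized males and females at an adjusted p under 0.05, by limma's moderated test with Benjamini-Hochberg adjustment over all genes tested. One of them, Hmcn2, was higher in males (0.00628%), and 10 (0.0628%) were lower. At an unadjusted p under 0.05 there were 1512 genes, 566 higher and 946 lower, and the median log2 difference over all autosomal genes was 0.01. Values of the 3 males and the 3 females did not overlap in 2889 genes (18.1%). A further 9 genes off the list of autosomal genes passed the same test, 4 on the X chromosome, 4 on the Y chromosome and 1 with no chromosome assigned.

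Posterior Hox genes made up 6 of the 10 genes that fell in males, counting the antisense RNA of Hoxa11. In the Hoxa cluster on chromosome 6, all 4 genes numbered 9 to 13 fell, while none of the 7 genes numbered 1 to 7 passed the test. Hoxa10, a gene of the trunk and the uterus, stood at 877, 1159 and 1294 in humanized females and at 2.20, 9.69 and 0 in humanized males (log2 difference −8.40, SE 0.70, limma adjusted p = 0.00139). Each female library lay above 800 and each male library below 10. WT libraries split in the same way, at 1258, 1115 and 1291 in females and 2.09 and 4.28 in males.

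Hoxa11, which is needed for the uterus and the lower limb bones, was at 256, 618 and 469 in humanized females and at 0, 3.25 and 0 in humanized males (−8.02, SE 0.60, limma adjusted p = 0.000965). Its antisense RNA Hoxa11os was at 132, 391.7 and 263 in females and was listed at 0 in all 3 males (limma adjusted p = 0.0003). The labels do not state whether counting used strand, so reads of this overlapping pair cannot be told apart. Hoxa13, the last gene of the cluster, known for digits and the genital tract, stood at 57.6, 211 and 139 in females and was listed at 0 in every male library, humanized or WT (limma adjusted p = 0.00105 for the humanized pair). No fold is given for genes listed at 0 in a whole group, since no read number sets a floor.

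Hoxa9 did not go to 0 in males. It was at 657, 1509 and 1028 in humanized females and at 15.6, 94.2 and 8.44 in humanized males (−5.35, SE 0.74, limma adjusted p = 0.0382). The call on Hoxa9 ended in 10 of the 11 fits that left out 1 library, where its adjusted p reached at most 0.204, and in the fit of the 6 humanized libraries alone. Its log2 difference stayed between −6.33 and −4.66 over all settings. Hoxa7, the next gene towards the front, was at 1437, 2931 and 1696 in females and 819, 3123 and 2709 in males, so that the groups overlapped.

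**Figure D1:**
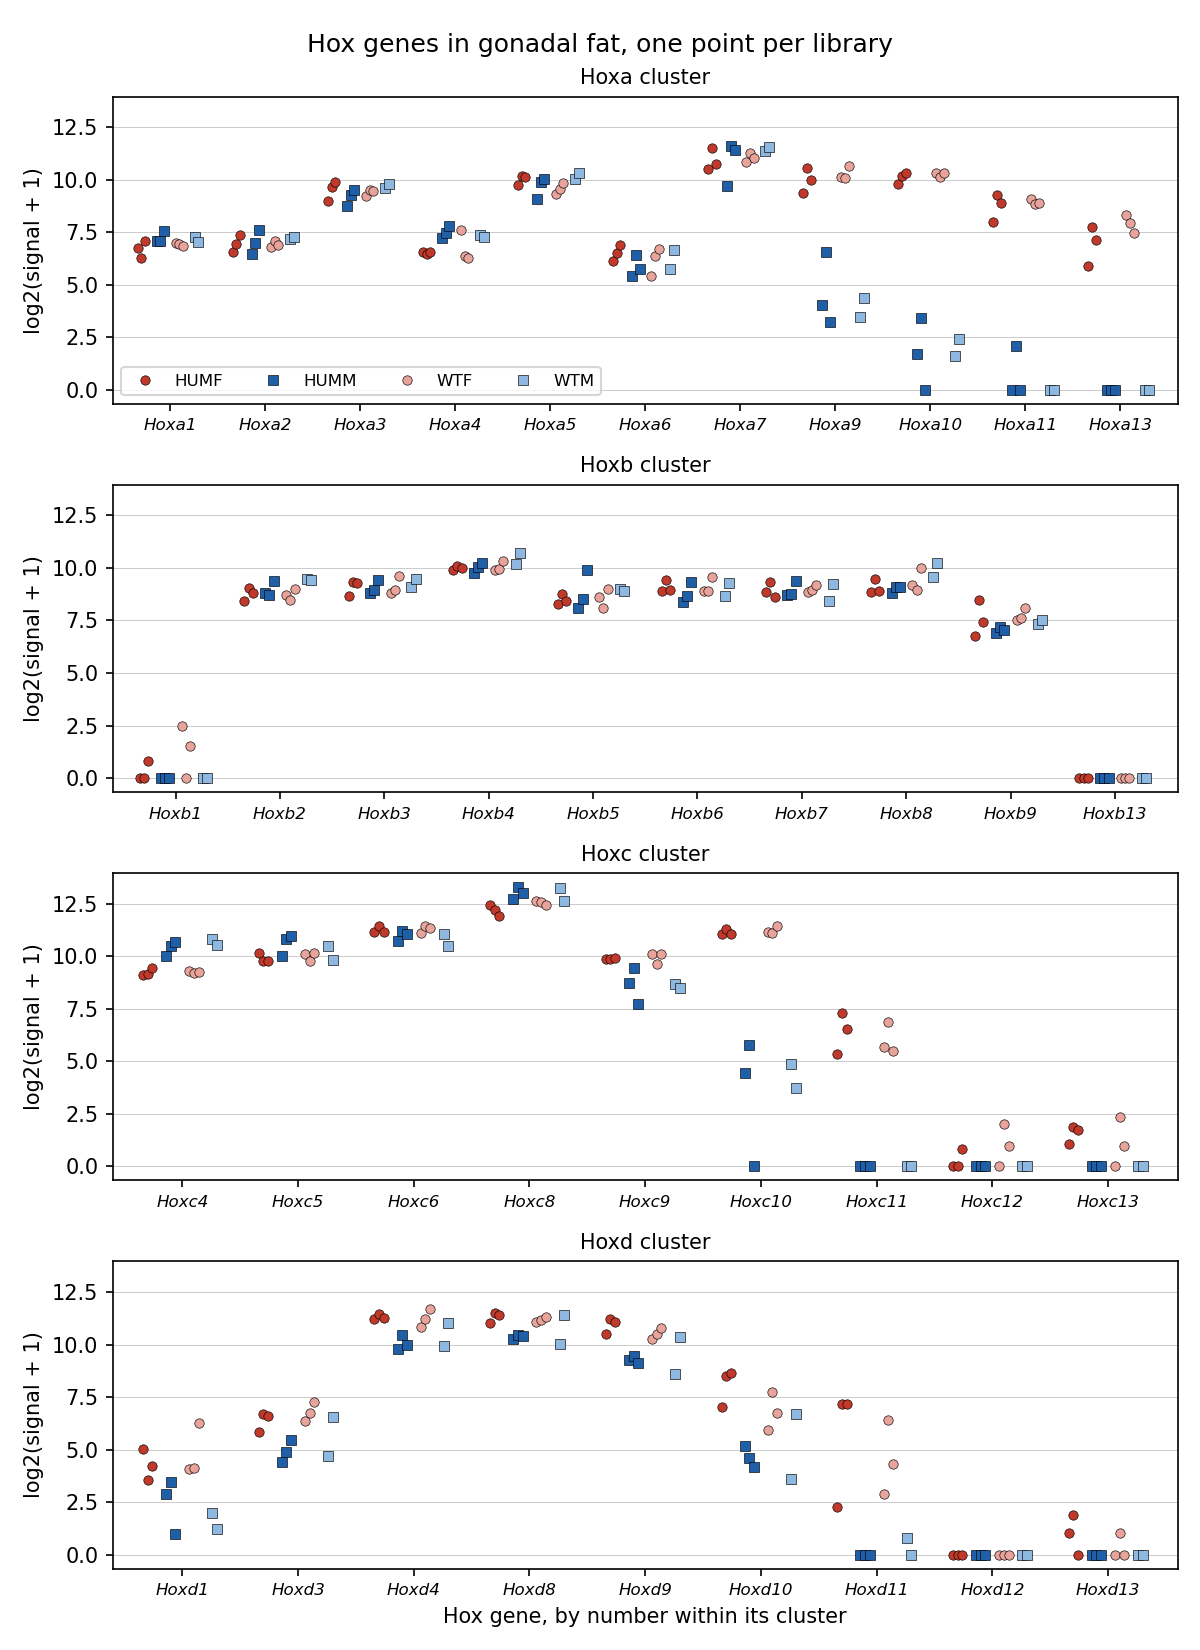
Normalized signal of the 39 Hox genes, as log2 of the signal plus 1 (vertical axis), by number within each of the 4 clusters (horizontal axis), with 1 point per library for humanized females (HUMF), humanized males (HUMM), WT females (WTF) and WT males (WTM). Hoxa9 to Hoxa13, Hoxc10 and Hoxc11 lie lower in all 5 male libraries than in all 6 female libraries, with Hoxa13 and Hoxc11 at 0 in every male, while the points of the groups mix in the Hoxb cluster.

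The sequences just around the starts of these genes are shown because the genes moved as a block, and Hmcn2 is shown as the gene that moved the other way. They come from RefSeq on GRCm38.p6, a build of another mouse strain than the one studied and other than the mm9 build that the submitters' processing notes name. Promoters were found for 9 of the 11 genes, each from 250 bases before the start to 50 bases after it, and 4 are printed 5′ to 3′ on the strand of the gene. Capitals mark 3 promoter motifs on either strand. The first is the TATA box, spelled TATAAA. The second is the box named for its letters CCAAT. The third is the GC box, spelled GGGCGG. Neighbouring or overlapping matches run together.
Hoxa10, inner start (chr6:52234890-52235189, minus strand): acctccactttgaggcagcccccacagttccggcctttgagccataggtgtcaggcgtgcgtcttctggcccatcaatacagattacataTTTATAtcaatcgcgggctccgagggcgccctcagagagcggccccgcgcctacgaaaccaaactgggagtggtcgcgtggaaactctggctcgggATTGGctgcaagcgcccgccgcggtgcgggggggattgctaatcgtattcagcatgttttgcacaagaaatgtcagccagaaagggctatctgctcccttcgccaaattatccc
Hoxa11 (chr6:52245761-52246060, minus strand): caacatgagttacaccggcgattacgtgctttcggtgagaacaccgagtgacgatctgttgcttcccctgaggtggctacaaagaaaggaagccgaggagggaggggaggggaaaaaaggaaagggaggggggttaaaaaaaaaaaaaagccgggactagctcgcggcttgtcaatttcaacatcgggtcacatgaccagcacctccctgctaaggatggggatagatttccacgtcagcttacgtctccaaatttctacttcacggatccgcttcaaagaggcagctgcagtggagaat
Hoxa13 (chr6:52260831-52261130, minus strand): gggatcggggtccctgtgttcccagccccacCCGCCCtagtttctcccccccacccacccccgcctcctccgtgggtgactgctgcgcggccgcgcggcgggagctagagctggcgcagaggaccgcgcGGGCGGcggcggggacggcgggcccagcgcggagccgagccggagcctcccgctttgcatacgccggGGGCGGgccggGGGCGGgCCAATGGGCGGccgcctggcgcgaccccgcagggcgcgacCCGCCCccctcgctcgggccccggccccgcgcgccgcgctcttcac
Hmcn2 (chr2:31314082-31314381, plus strand): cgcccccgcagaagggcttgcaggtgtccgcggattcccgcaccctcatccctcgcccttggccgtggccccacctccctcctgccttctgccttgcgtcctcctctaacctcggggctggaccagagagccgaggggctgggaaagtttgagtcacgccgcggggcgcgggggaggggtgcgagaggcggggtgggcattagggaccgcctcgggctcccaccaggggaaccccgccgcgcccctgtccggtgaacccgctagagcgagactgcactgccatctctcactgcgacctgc

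The windows differed in base content, with G and C at 57.3% of the inner Hoxa10 window, 51% of the Hoxa11 window, 81% of the Hoxa13 window and 70.7% of the Hmcn2 window. The inner start of Hoxa10 held 1 TATA box and 1 CCAAT box, while the outer start, not printed, held 2 GC boxes and neither of those. The Hoxa9 window, also not printed, held 1 GC box, and Hoxa13 held 1 CCAAT box and 6 GC boxes. Hoxa11 and Hmcn2 held none of the 3. Over all 32851 promoter windows of the table, 13.6% held a TATA box, 37.4% a CCAAT box and 35.7% a GC box. A paired site for PBX and HOX proteins was searched on both strands too (TGATTNAT, in 3.22% of windows). Those letters were not in the 4 windows. A full estrogen response element (0.07% of windows) and a full androgen and glucocorticoid response element (0.00913%) had no match in them either.

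The Hoxc cluster on chromosome 15 showed the same turn at its rear end. Hoxc11 was at 40.3, 159 and 91.1 in humanized females and was listed at 0 in all 3 humanized males (limma adjusted p = 0.00348) and in both WT males. Hoxc10, a gene of the hindlimb and lower trunk, was at 2166, 2557 and 2102 in humanized females against 20.4, 54.1 and 0 in humanized males. Its difference of −7.74 (SE 1.17) just missed the threshold (limma adjusted p = 0.0568), and it passed without humanized male replicate 5 (0.0253) or replicate 6 (0.00172). Hoxc9 was only partly lower, at 921, 947 and 965 against 417, 683 and 209 (−1.27, SE 0.36, limma adjusted p = 0.336).

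Among the 4 Hoxc genes numbered 4 to 8, Hoxc4 and Hoxc8 were higher in males without overlap, as were 8.53% of all autosomal genes. Hoxc5 and Hoxc6 overlapped, and none of the 4 was called. Hoxc6 was at 2253, 2775 and 2263 in humanized females and 1690, 2329 and 2167 in humanized males (−0.24). Hoxc4 stood at 548, 560 and 688 in humanized females and at 1022, 1437 and 1641 in humanized males, which did not overlap (1.17, SE 0.18, limma adjusted p = 0.0704). It was called in the WT pair, at 618, 594 and 603 against 1790 and 1502 (1.44, limma adjusted p = 0.0339), and in the humanized pair without male replicate 4 (0.0181). Hoxc8 was at 5634, 4750 and 3810 in females and 6883, 10044 and 8220 in males (0.83, SE 0.20, limma adjusted p = 0.259). The Hox genes named beyond the called ones were chosen after their values were seen.

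In the Hoxd cluster on chromosome 2 each of the 7 genes tested was lower in every humanized male than in every humanized female, as were 9.61% of all autosomal genes, and none was called. Hoxd9 was at 1461, 2363 and 2140 against 617, 699 and 555 (−1.65, SE 0.39, limma adjusted p = 0.252). Hoxd10 was at 131, 362 and 400 against 35.3, 23.1 and 16.7 (−3.43, SE 0.81, limma adjusted p = 0.252). Hoxd11 was at 3.81, 143 and 144 in females and was listed at 0 in the 3 males. The WT pair overlapped in Hoxd3, Hoxd4, Hoxd8, Hoxd9 and Hoxd10, and was lower in males without overlap in Hoxd1 and Hoxd11, as in 12.4% of all autosomal genes. In Hoxd9 and Hoxd10, WT male replicate 5, at 1332 and 103, lay within the range of the females. Without either of the WT males, which share the estimate of the spread, Hoxd9 of the humanized pair passed the test (0.0321 and 0.0331).

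The Hoxb cluster on chromosome 11 held no called gene. None of its 8 genes tested was called or free of overlap between the humanized groups, and its 7 genes numbered 1 to 8 had a median log2 difference of 0.02. Over all 33 Hox genes tested of 39, 5 were called lower, 14 were lower without overlap and 3 higher without overlap, with a median of −0.34. Over all autosomal genes the shares were 0.0628% called lower, 9.61% lower without overlap and 8.53% higher without overlap, and the count of 3 is near the last of these. The 4 Hoxa genes from 9 to 13 had a median of −7.47 in the humanized pair and −8.07 in the WT pair. These medians take fitted values of genes listed at 0, which depend on the added 1.

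Outside the Hox clusters the gene that rose was Hmcn2 on chromosome 2, which encodes hemicentin 2, a large protein of the extracellular matrix. It was at 2105, 2456 and 2280 in humanized females and 11586, 8856 and 12360 in humanized males, a 4.75-fold difference (2.25, SE 0.19, limma adjusted p = 0.00139). WT females stood at 2837, 1897 and 3078 and WT males at 6636 and 6657 (1.38, limma adjusted p = 0.0447). The humanized males were the highest group and all 6 female libraries lay below all 5 male libraries. The test of the difference between the 2 pairs gave 0.87 (limma adjusted p = 0.65).

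B3galt1, a galactosyltransferase that builds sugar chains on proteins and lipids, fell from 1047, 931 and 935 in humanized females to 297, 310 and 385 in humanized males (−1.56, SE 0.15, limma adjusted p = 0.00348). WT animals gave 906, 866 and 773 against 199 and 202 (−2.07, limma adjusted p = 0.00148). Both pairs separated with a wide gap, since no female library was under 773 and no male library over 385.

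Plekhb1, a membrane protein with a pleckstrin homology domain, was at 1023, 989 and 1123 in humanized females and 200, 257.9 and 391 in humanized males (−1.94, SE 0.24, limma adjusted p = 0.0229). The WT pair did not overlap either, at 1027, 889 and 750 against 509 and 391.7, and was not called (−0.98, limma adjusted p = 0.251). With the replicate number as a block the call on Plekhb1 was lost (limma adjusted p = 0.0734), as it was without humanized female replicate 4 (0.101), 5 (0.101) or 6 (0.124), without humanized male replicate 5 (0.133), and with the 6 humanized libraries alone (0.0878).

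Socs2 and Asic2 fell in the humanized pair and were not called in the WT pair. Socs2, a brake on growth hormone signalling that growth hormone itself induces, was at 1490, 1748 and 1681 in humanized females and 739, 626 and 798 in humanized males (−1.19, SE 0.17, limma adjusted p = 0.0497). WT females at 814, 1274 and 994 and WT males at 977 and 945 overlapped (−0.07, limma adjusted p = 0.939), and the test of the difference between the pairs gave −1.12 (limma adjusted p = 0.597). The call ended with the replicate block (limma adjusted p = 0.0965) and in 9 of the 11 fits without 1 library, at up to 0.253. It also ended, at 0.0509 to 0.0567, with a pseudocount of 10 or 0.5, no filter, robust moderation and the 6 humanized libraries alone.

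Asic2, a sodium channel opened by acid that nerve cells use, was at 873, 1369 and 1631 in humanized females and at 42.0, 45.2 and 44.4 in humanized males (−4.80, SE 0.70, limma adjusted p = 0.0488). Among WT females the single replicate 5, at 981, came near the humanized females, while replicates 4 and 6 stood at 99.0 and 243 and the males at 92.3 and 197 (−1.08, limma adjusted p = 0.694). The same WT female was the highest WT library in mesothelial markers. The call on Asic2 ended in 9 of the 11 fits without 1 library, with an adjusted p of at most 0.229, and with a pseudocount of 10 (0.0531) or 0.5 (0.0512) and with robust moderation (0.0509).

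**Figure D2:**
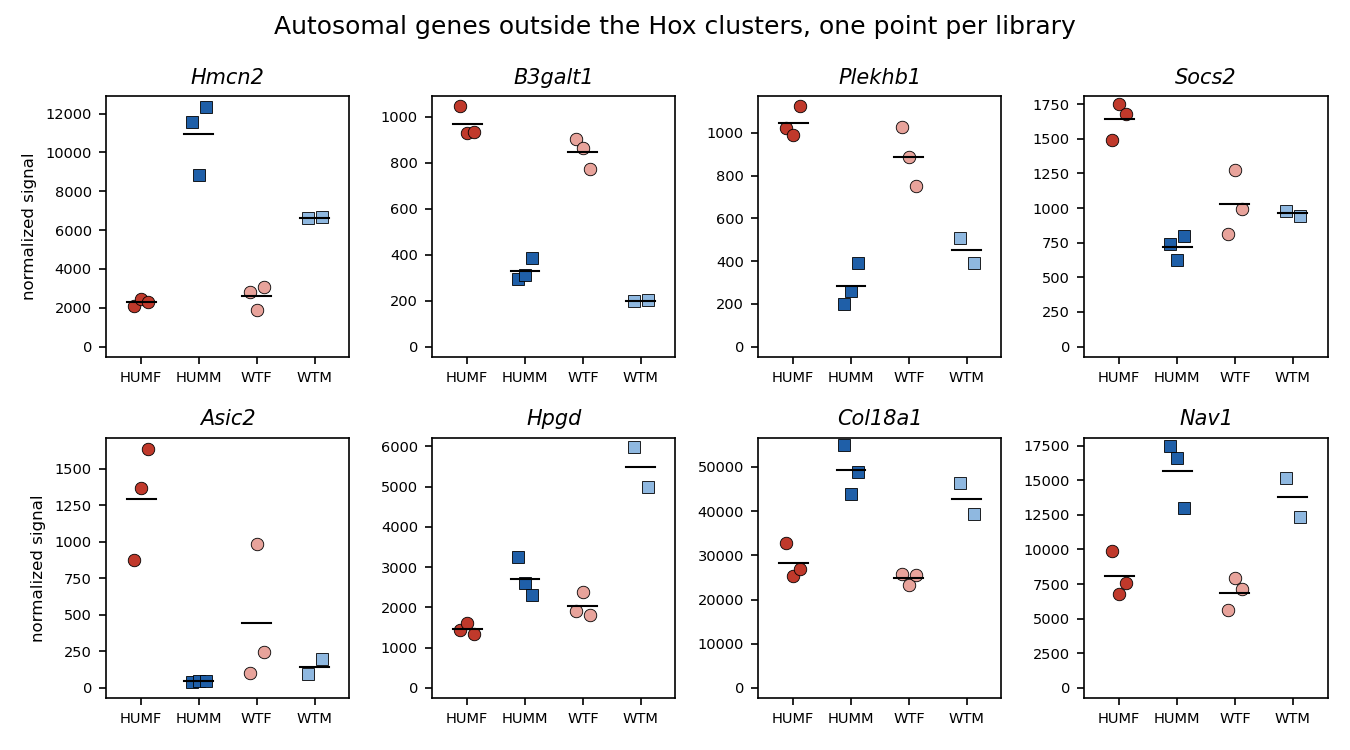
Normalized signal (vertical axes, linear) of 8 autosomal genes outside the Hox clusters in each group, with 1 point per library and a bar at the group mean. Hmcn2 lies between 8856 and 12360 in humanized males and at most at 3078 in the female groups, B3galt1 is below 400 in all males, and Socs2 and Asic2 separate the humanized groups and overlap in the WT groups.

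Among the other genes with the smallest p values, those higher in males were Golga7b, Col18a1, Hpgd, Mcpt2, Smim4, Sox9, Nav1 and Slc6a7 besides Hoxc4, and none of them was called in the humanized pair. Col18a1, the collagen that releases endostatin, was at 32772, 25269 and 26810 in humanized females and 55016, 43946 and 48819 in humanized males (0.80, SE 0.14, limma adjusted p = 0.0929), with a like difference in WT (0.78, limma adjusted p = 0.11). Hpgd, which breaks down prostaglandins, was at 1441, 1617 and 1347 against 3240, 2596 and 2310 (0.88, SE 0.16, limma adjusted p = 0.13), and it was called in WT (1.43, limma adjusted p = 0.0168). Nav1, a neuron navigator protein, was at 9914, 6774 and 7541 against 17471, 16580 and 12987 (0.96, SE 0.19, limma adjusted p = 0.167), and in WT at 5608, 7922 and 7130 against 15190 and 12346.

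Golga7b, which assists palmitoylation of proteins, was at 1191, 549 and 1026 in humanized females, at 2670, 3320 and 3484 in humanized males and at 815 to 1544 over the WT libraries (1.84, SE 0.31, limma adjusted p = 0.0912, and 0.617 for the difference between the pairs). Mcpt2, a protease of mucosal mast cells, was listed at 0 in the 3 humanized females and stood at 811, 176 and 509 in the 3 humanized males (limma adjusted p = 0.13). Of the WT libraries, female replicate 4 held Mcpt2 at 105 and the other 4 were listed at 0. Without that WT female, Mcpt2 passed the test (0.00261). Sox9, a transcription factor of cartilage and of the testis, was at 67.1, 90.03 and 41.6 against 298, 339 and 454 (2.48, SE 0.47, limma adjusted p = 0.153).

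Depot identity was read from lists of genes of the neighbouring organs. Of 25 epididymal genes, only Rnase10 reached the level needed for testing, and it was higher in females, at 18.2, 24.3 and 32.5 against 2.72, 7.83 and 6.29 (−2.03, SE 0.60, limma adjusted p = 0.355). The defining secreted proteins Lcn5, Lcn8 and Crisp1 were at most 3.69, 8.35 and 0.93 in humanized males, and 7 of the 25 genes were listed at 0 in every library. The list summed to 23.2 to 41.9 in humanized females, mostly from Rnase10, and to 29.6, 9.83 and 7.25 in humanized males. Gpx5 was at 9.30 and Lcn8 at 8.35 in humanized male replicate 4, and both were listed at 0 in humanized females. WT male replicate 4 summed to 90.7, with Gpx5 at 30.1 and Lcn8 at 14.2, and WT male replicate 5 to 4.02. WT females summed to 13.4 to 27.8. Sperm proteins Prm1, Prm2 and Tnp1 belonged to a list of 17 of which 5 were tested and none called, with a median of 0.10. Of 13 genes of the vas deferens, seminal vesicle and prostate 2 were tested. Seminal vesicle secretion genes showed traces in a single humanized male, replicate 5, with Svs2 (listed as Semg1) at 29.7 and Svs4 at 12.3, against at most 2.29 and 0 in humanized females. WT males held both, with Svs2 at 18.8 and 15.5 and Svs4 at 31.8 and 10.6.

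Of the defining genes of the ovary, the oocyte factor Gdf9 was at 71.9, 47.8 and 59.3 in humanized females and 69.4, 59.4 and 52.9 in humanized males, and the groups overlapped (0.03, limma adjusted p = 0.985). Foxl2, the granulosa cell factor, was at most 12.1 in a humanized female, Zp3 of the egg coat at most 9.82, and Fshr was listed at 0 throughout. Ovgp1, the oviduct glycoprotein, was at 75.3, 73.3 and 114 in humanized females and 69.7, 126 and 72.8 in humanized males, and the groups overlapped. Wnt7a and Foxa2, which mark the epithelium of the female tract, were at most 0 and 3.76 in humanized females. Foxa2 was at 14.0 in humanized male replicate 6 and at 50.9 in WT male replicate 5. Of 14 tract genes 7 were tested and 3 were lower without overlap, against 9.61% of all autosomal genes. The 2 called ones, against 0.0628% called lower of all, were Hoxa11 and Hoxa13, already described among the Hox genes.

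Developmental regulators other than Hox genes were mostly lower in humanized males, with none called. Of 23 tested, 13 were lower in every humanized male than in every humanized female, as were 9.61% of all autosomal genes. In the same list 1 was higher without overlap, against 8.53% of all, and the median was −0.76. The WT median was −0.33, with 8 genes above 0 and 15 below. Emx2, a factor of the urogenital ridge, stood at 178, 320 and 681 against 33.5, 81.1 and 41.6 (−2.78, SE 0.50, limma adjusted p = 0.13), and at 252, 426 and 428 against 62.5 and 55.2 in WT. Foxf1 was at 69.3, 207 and 81.0 against 7.45, 45.2 and 34.5 (−2.15, SE 0.67, limma adjusted p = 0.37, and −1.39 without male replicate 4). Shox2 was at 221, 144 and 148 against 75.3, 29.3 and 88.4. In WT, Foxf1 was lower in males without overlap, while Shox2 overlapped, at 121, 147 and 160 against 68.3 and 128. Pitx1, the hindlimb factor, chosen after its values were seen, was at 38.1, 7.36 and 72.6 in humanized females and listed at 0 in all 5 males (limma adjusted p = 0.0912 in the humanized pair and 0.0328 in WT). It passed in the humanized pair without female replicate 5 (0.0284).

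Mesothelial genes, of the sheet of cells that covers the pad, had lower values in humanized males, least so without replicate 4. All 15 were tested, all 15 had a log2 difference below 0, 9 were lower without overlap (9.61% over all autosomal genes), none was called and the median was −1.70. Upk3b, a marker of that sheet, was at 15930, 23168 and 36752 in humanized females and 1303, 8208 and 9726 in humanized males (−2.34, SE 0.88, limma adjusted p = 0.471, and 0.779 for the difference between the pairs), and the difference was −1.42 without male replicate 4. The summed signal of the list ran from 52966 to 105194 in humanized females and from 10359 to 43001 in humanized males. Without male replicate 4 the median became −0.79, still with 15 of 15 below 0. In WT the median was 0.25, with female sums from 15985 to 74957 enclosing the male ones at 41365 and 29279. The part of mesothelial content in the other differences was not tested. Wt1, shared with the list of regulators, was at 2168, 3556 and 3456 against 598, 1149 and 1158.

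Fat cell products were abundant in all libraries. Adiponectin (Adipoq) was at 236839, 286669 and 287631 in humanized females and 116720, 233692 and 244916 in humanized males, and perilipin 1 (Plin1) and Fabp4 overlapped between the groups as well. Of 21 adipocyte genes none was called, with a median of −0.06 that became 0.24 without male replicate 4. Leptin (Lep) was at 124027, 36154 and 52336 against 243452, 108779 and 102369 (1.18, SE 0.55, limma adjusted p = 0.549), and the groups overlapped through female replicate 4. Gpd1, which supplies glycerol phosphate for triglycerides, was at 81467, 86254 and 62279 against 126246, 131616 and 141004 (0.81, SE 0.34, limma adjusted p = 0.516). The secreted Wnt inhibitor Sfrp5 was at 9245, 876 and 3377 against 13295, 12307 and 10082 (1.97, SE 0.96, limma adjusted p = 0.56).

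Among 19 genes of lipid droplets and lipolysis 3 were higher in all humanized males and 1 lower, near the 8.53% and 9.61% over all autosomal genes, and none was called. Adrb1, a receptor through which noradrenaline starts lipolysis, was at 392.3, 240 and 343 against 724, 1031 and 793 (1.40, SE 0.45, limma adjusted p = 0.381), and the glycerol channel Aqp7 was at 10052, 8078 and 8696 against 10912, 15854 and 14316 (0.60, SE 0.22, limma adjusted p = 0.446). Of 16 genes of brown and beige fat, 12 had a difference above 0, 3 were higher without overlap (8.53% over all autosomal genes), none was called and the median was 0.80, against −0.17 in WT. Ucp1, the defining gene, was at 330, 8.90 and 84.8 in humanized females and 1026, 221 and 133 in humanized males, which overlap, and it was at 7873 in WT female replicate 4.

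**Figure D3:**
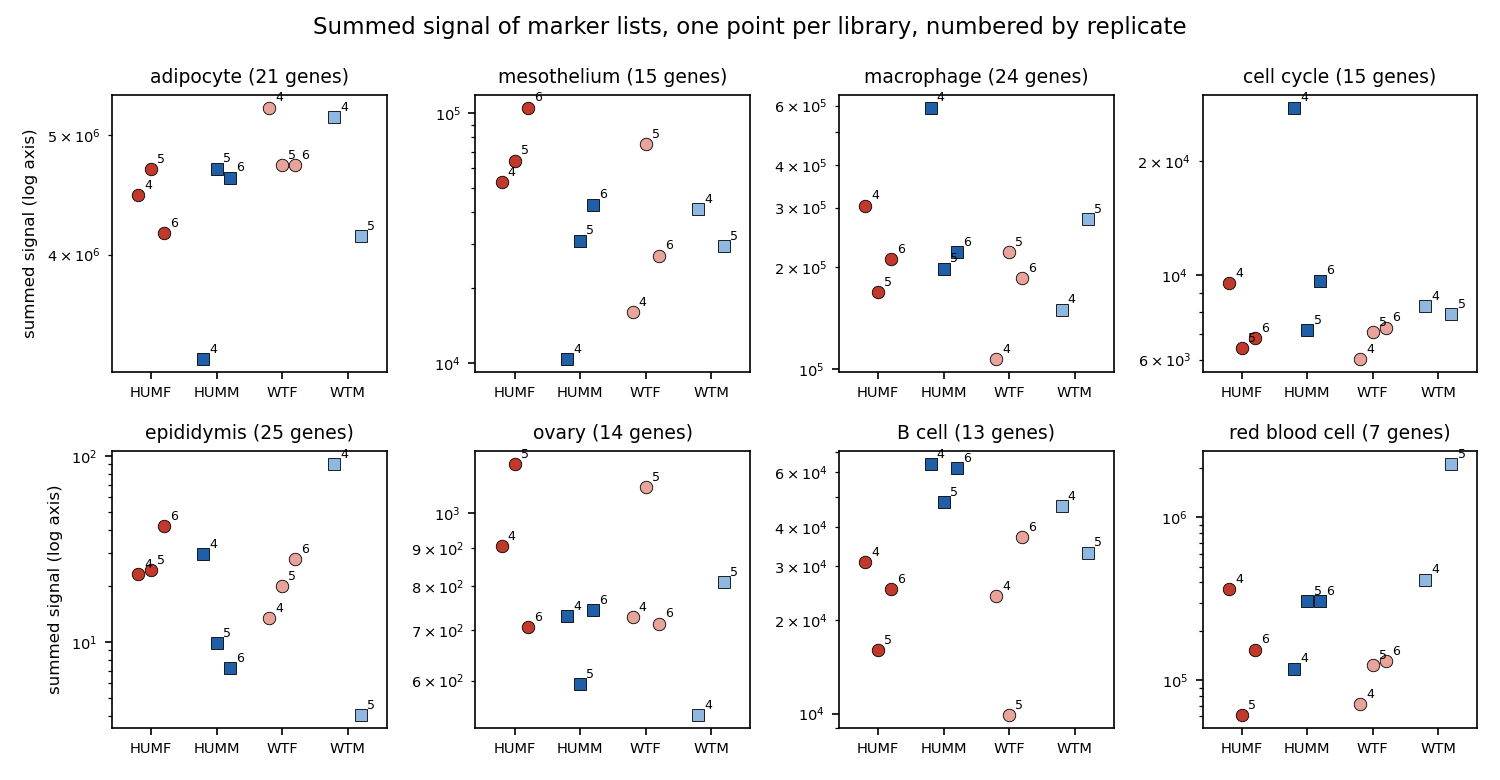
Summed normalized signal of 8 marker lists (vertical axes, logarithmic) in each group, with 1 point per library numbered by its replicate. Humanized male replicate 4 is the lowest library in adipocyte and mesothelial sums and the highest in macrophage and cell cycle sums, the humanized females lie above the humanized males in the mesothelial sum, and the epididymal sums stay below 100.

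No steroid-related gene passed the test, though several had values that did not overlap between the sexes. Pgr, the progesterone receptor, was at 38.5, 269 and 855 in humanized females and was listed at 0 in all 5 males of both genotypes (limma adjusted p = 0.0704 in the humanized pair). It passed without humanized female replicate 4 (0.0443) or WT female replicate 5 (0.0401). Esr1, the estrogen receptor that induces Pgr, was at 5481, 9165 and 10140 against 2666, 4448 and 4637 (−1.07, SE 0.33, limma adjusted p = 0.371), and Greb1, another estrogen target, at 47.8, 67.8 and 108 against 17.8, 25.7 and 39.3 (−1.39, SE 0.51, limma adjusted p = 0.45). All 3 also separated the WT pair with males lower, as did 12.4% of all autosomal genes. Pgr was at 9.65, 192 and 33.6 in WT females. Of 13 estrogen targets tested, which include Pgr and Greb1, 2 were lower without overlap and 1 higher, near the shares over all autosomal genes (9.61% and 8.53%), with a median of −0.29 that became −0.64 without male replicate 4.

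Sult1e1, which inactivates estrogen by adding sulfate, went the opposite way. It was at 7.50, 0.898 and 12.2 in humanized females and 119, 141 and 738 in humanized males (5.28, SE 1.39, limma adjusted p = 0.295), and at 0, 59.4 and 7.74 against 1094 and 1986 in WT (7.51, limma adjusted p = 0.128). All 5 males lay above all 6 females. Cyp1b1, which hydroxylates estrogen, was at 4116, 2182 and 1956 against 6901, 4424 and 4375 (0.98, SE 0.30, limma adjusted p = 0.368), and Akr1c14, which acts on reduced androgens and progestins, at 1391, 1411 and 1285 against 347, 678 and 886 (−1.20, SE 0.45, limma adjusted p = 0.47). Over 19 enzymes of steroid making and inactivation tested, 2 were higher and 2 lower without overlap, near the same shares, and the median was 0.07. The 9 steroid receptors and cofactors tested had a median of −0.03, with 3 lower without overlap against 9.61% of all autosomal genes. The 14 androgen and glucocorticoid targets tested had a median of −0.27, with 5 above 0 and 9 below. In WT their median was 0.55, with 9 above 0 and 5 below.

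**Figure D4:**
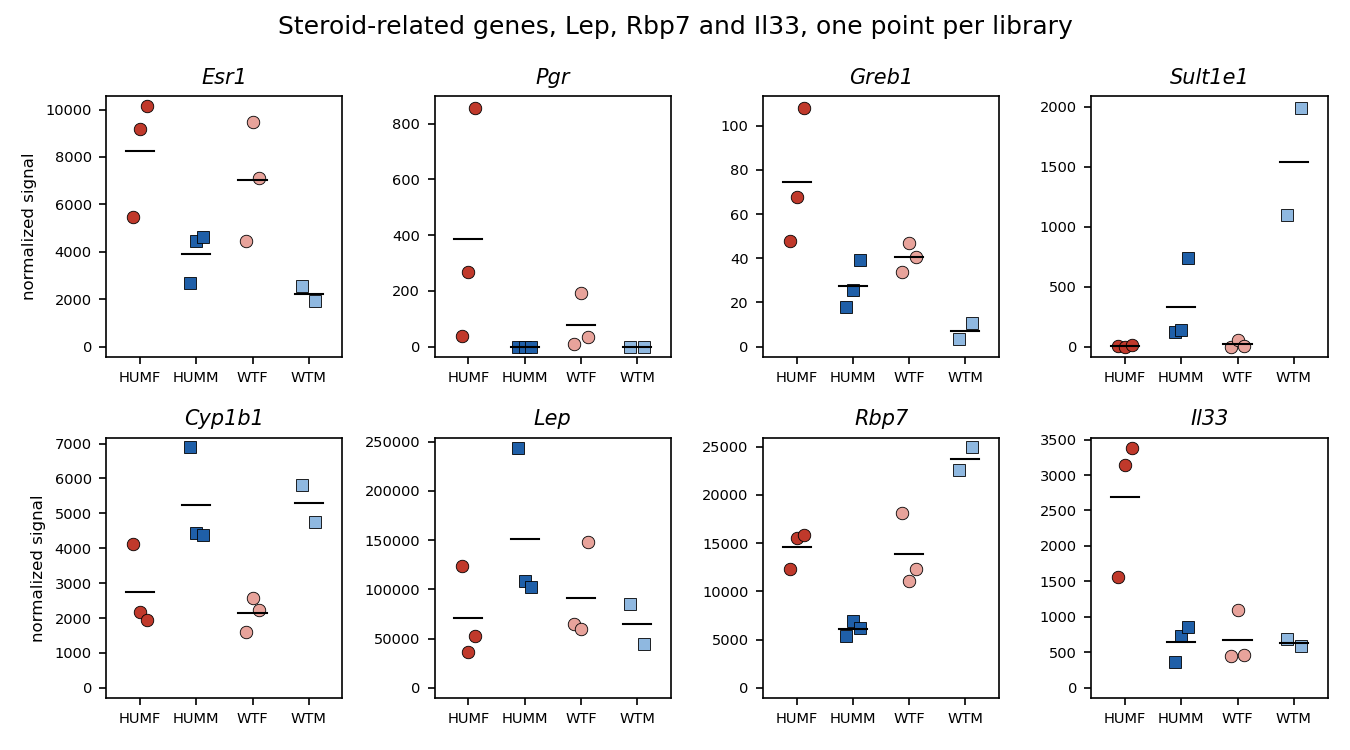
Normalized signal (vertical axes, linear) of steroid-related genes, leptin, Rbp7 and Il33 in each group, with 1 point per library and a bar at the group mean. Pgr is at 0 in all 5 male libraries, Sult1e1 is above 100 in all males and below 60 in all females, and Rbp7 lies below both female groups in humanized males and above them in WT males.

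No gene of the macrophage, B cell, T cell or cytokine lists was called. Of 24 macrophage genes 1 was higher and 3 lower without overlap, near the shares over all autosomal genes (8.53% and 9.61%), with a median of 0.36 that became −0.08 without male replicate 4. Of the 24, 18 had a log2 difference above 0, and 11 did without male replicate 4. Timd4 and Lyve1, which mark macrophages that live in the tissue, were at 363, 423 and 640 against 104, 206 and 170 (−1.58, SE 0.42, limma adjusted p = 0.314) and at 3627, 5044 and 7559 against 1101, 3624 and 1697 (−1.45, SE 0.46, limma adjusted p = 0.38). Both overlapped in WT, with Timd4 at 205, 495 and 208 against 229 and 136 (−0.64). Lyve1 differed the other way there, at 1837, 3548 and 2940 against 6383 and 3355 (0.79). Trem2, of lipid-laden macrophages, was at 7322, 4911 and 3764 against 19272, 7725 and 8369 (1.07, SE 0.42, limma adjusted p = 0.487). The proliferation marker Mki67 overlapped, at 1222, 235 and 561 against 4339, 486 and 1245, in a list of 15 whose median fell from 1.14 to 0.37 without male replicate 4.

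Il33, a cytokine that sustains the regulatory lymphocytes of fat, was at 1568, 3145 and 3374 in humanized females and 365, 731 and 865 in humanized males (−2.06, SE 0.45, limma adjusted p = 0.222), and the WT libraries overlapped between 456 and 1101. Il33 ran against its list, since 14 of the 17 cytokine genes tested had a log2 difference above 0 and 3 below. Without male replicate 4, 8 of the 17 were above 0. In that list 1 gene, Il33, was lower without overlap and 0 were higher, against 9.61% and 8.53% of all autosomal genes. Of 12 B cell genes tested, 7 were lower and 2 higher without overlap, against 9.61% and 8.53% of all autosomal genes, none was called and the median was −1.31. Ms4a1, the CD20 antigen, was at 224, 231 and 192 against 34.2, 30.0 and 75.5 (−2.30, SE 0.65, limma adjusted p = 0.337), and the antibody joining chain Jchain at 218, 1853 and 1057 against 187, 36.8 and 14.0 (−3.99, SE 1.15, limma adjusted p = 0.35). Ighm, the IgM heavy chain, ran against them at 25233, 10492 and 20789 in females and 56845, 45772 and 59540 in males (1.60, SE 0.56, limma adjusted p = 0.43). The summed B cell signal follows Ighm and was thus higher in males.

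Further lists held no called gene in either direction, and the numbers below are medians of the log2 difference over the genes tested. Smooth muscle genes had a median of −1.11 over 12 tested, with Des at 5450, 11260 and 13562 against 4144, 4366 and 4115 (−1.16, SE 0.37, limma adjusted p = 0.38). Nerve and Schwann cell genes had a median of −1.04 over 6, skeletal muscle genes −0.20 over 9 and red blood cell genes 0.41 over 7. Endothelial genes stood at 0.04 over 16, progenitor genes at −0.18 over 19 and matrix genes at 0.16 over 31. Fatty acid synthesis genes had −0.30 over 23, respiratory chain subunits −0.06 over 21, adipokines 0.11 over 21, T cell and related genes 0.02 over 18 and cytokines 0.50 over 17. Motile cilia genes had −0.50 over 8, genes of steroid-making and supporting gonadal cells −0.35 over 12, ovarian genes −0.19 over 3 and imprinted growth genes −0.43 over 12. Genes that arsenic is known to induce, such as NRF2 targets and metallothioneins, had a median of 0.07 over 17, with 11 above 0 and 6 below. Catalase (Cat) was the 1 gene of these lower without overlap, against 9.61% of all autosomal genes, and 0 were higher without overlap. It was at 93186, 75467 and 88844 against 54851, 65344 and 64229 (−0.48, SE 0.13, limma adjusted p = 0.317). Without male replicate 4 several of these medians changed sign, to 0.08 for fatty acid synthesis, 0.08 for the respiratory chain, −0.07 for adipokines, −0.14 for T cell and related genes and −0.09 for cytokines. Others moved by over 1.5 times, to 0.0025 for matrix genes, 0.97 for red blood cell genes, 0.11 for endothelial genes, 0.008 for genes that arsenic induces, −0.14 for gonadal cells and −0.07 for ovarian genes.

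Insulin signalling genes had a median of −0.08 over 16, which became 0.10 without male replicate 4, with the adaptors Grb14 and Grb10 on opposite sides. Grb14, which binds the insulin receptor, was at 467, 540 and 487 in humanized females and 1821, 1594 and 1843 in humanized males (1.81, SE 0.48, limma adjusted p = 0.3). WT males, at 1840 and 1582, stood at the same level, and WT females at 890, 176 and 643. Without WT female replicate 5, which widens the shared spread, Grb14 passed the test (0.00249), as it did with the 6 humanized libraries alone (0.00942). Grb10, the related adaptor, was at 9207, 11580 and 13362 against 4700, 7879 and 7171 (−0.81, SE 0.21, limma adjusted p = 0.309).

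Of 9 RNAs tested that lack a polyA tail or stay in the nucleus, 4 were higher without overlap in humanized males (8.53% of all autosomal genes), none was called and the median was 0.75. The signal recognition particle RNA Rn7s1 was at 522, 421 and 417 in humanized females and 2144, 2255 and 3407 in humanized males (2.49, SE 0.58, limma adjusted p = 0.248), and its near copy Rn7s2 gave almost the same values, so the copies are uncertain. Rn7sk, which holds back transcription elongation, was at 114, 88.9 and 83.6 against 340, 381 and 496, and Rmrp at 14.0, 12.3 and 23.3 against 73.7, 77.4 and 93.4. WT male replicate 5, at 3363 for Rn7s1, was as high as the humanized males, while WT male replicate 4 was at 451. Without WT male replicate 4 or 5, Rn7s1 of the humanized pair passed the test (0.00529 and 0.00557). The part of these RNAs in the other results was not tested.

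The WT pair of males and females gave 23 called autosomal genes (0.144%), 11 higher and 12 lower (0.0753%) in males. Of the 11 genes called in the humanized pair, 8 were also called in WT, and all 11 had the same sign. The 8 genes are 72.7% of the first list and 34.8% of the second. The 3 genes called in the humanized pair and not in WT were Plekhb1, Socs2 and Asic2. Both tests took the spread of each gene from the same fit of 11 libraries, so the shared calls are not independent. With the 5 WT libraries alone, the WT count was 6 instead of 23. No autosomal gene was called in the test of the difference between the pairs (limma, 0%). There 1107 genes had an unadjusted p under 0.05, 533 above 0 and 574 below, and the lowest adjusted p was 0.209. Mafk, a partner of NRF2 at its target sites, and Rbp7, a retinol binding protein of fat and its vessels, had that value.

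Mafk was at 6380, 5643 and 5974 in humanized females and 5680, 5986 and 5289 in humanized males, against 5161, 4108 and 4913 in WT females and 9550 and 10238 in WT males. The WT males thus lay above every other library, and only the WT difference was called (1.07, limma adjusted p = 0.0106). Stim1, the calcium sensor of the endoplasmic reticulum, had the same order, at 9225, 10429 and 11410 against 7561, 10626 and 9021 in humanized animals and 10026, 9951 and 9925 against 22444 and 19120 in WT (difference between the pairs −1.26, limma adjusted p = 0.32). Values of the males and females did not overlap in both pairs, in opposite directions, in 194 genes (1.22% of those tested), and did not overlap in the same direction in 352 lower and 235 higher genes.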

How the data were processed

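RNA of gonadal fat was sequenced. The labels give total RNA as the molecule and cite a publication known for chromatin run-on sequencing, so the kind of library (mature mRNA, total or nascent RNA) and its strand are not settled by the sources used here. The signal values used are those the authors deposited, made with DESeq2 normalization, and the submitters' processing notes also name STAR, Salmon, limma and the mm9 build without versions or roles. Whole reads could not be recovered from these values, so the depth is unknown, no interval for counting error is given and no count test was run. Genes were named and assigned to chromosomes by symbol (GRCm38.p6), for 48058 and 35731 of 48440 IDs, and 899 tested genes without a chromosome were left out of the autosomal set.

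Genes with a mean signal of at least 10 over the 11 libraries were fitted as log2 of the signal plus 1 by limma 3.58.1 (R 4.3.3), letting the prior spread follow the mean level, with 1 mean per group and 7 residual degrees of freedom. The threshold was 0.05 on p-values adjusted by the Benjamini-Hochberg method across all 17394 tested. A log2 difference is male minus female on that scale, which understates the change of low genes, and a fold is its power of 2. The fit was also run on simulated normal log2 values with the fitted spread. Because these values met the assumptions of the fit, that run could not test groups listed at 0 or single odd libraries. Lists are described by counts and medians, with no list test. Members and lists were chosen with earlier results of these data known. The text names the 11 called genes, the 10 smallest p in each direction, and of each list the first 3 members and up to 4 with the smallest p. The rule for naming also took the check genes and the 5 smallest p of the genotype by sex test in each direction. Not all genes taken by the rule are printed. Of the genotype by sex genes, values are given for those below 0, namely Mafk, Rbp7, Tead4, Hspb1 and Stim1. No values are given for those above 0, namely Ggn, Gm10044, Gm3468, Ppargc1b and Slc26a2.

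Deviations of same-numbered humanized males and females from their group means correlated across genes at 0.399, 0.322 and 0.148 for replicates 4, 5 and 6. In WT the correlation was 0.358 for replicate 4 and 0.0605 for replicate 5, against 0.297 for female replicate 6 with male replicate 5. The labels do not say what a replicate number marks. The main fit was therefore unpaired, and the number entered only as a block in an alternative fit. Alternatives were another pseudocount (10 or 0.5), no filter or a mean of at least 100, rescaling, robust moderation, the replicate block, only the groups compared, and leaving out each library. No library repeated another.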

Additional observations from a re-analysis of the deposited data

Results flagged for a closer look

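Each gene below was flagged because its values did not overlap between males and females in both genotypes, in opposite directions. The difference between the pairs was tested by limma for each, and none was called. Rbp7 was at 12286, 15520 and 15871 in humanized females and 5346, 6940 and 6161 in humanized males, and at 18174, 11122 and 12283 against 22560 and 24948 in WT (difference of the differences −2.05, adjusted p = 0.209). The humanized difference of Rbp7 alone was −1.24 (adjusted p = 0.0568), and it passed without WT female replicate 4 (0.015) or 5 (0.0462). Tead4, a transcription factor of the Hippo pathway, was at 489, 544 and 533 against 338, 465 and 453 in humanized animals and at 328, 343 and 347 against 1186 and 804 in WT (−1.85, adjusted p = 0.32). Hspb1, a small heat shock protein, was at 14459, 17812 and 15035 against 11509, 12898 and 10536 and at 11235, 11390 and 12506 against 18119 and 17976 (−1.06, adjusted p = 0.32).

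Fkbp5, a glucocorticoid target, was at 14212, 10800 and 19953 against 3187, 10135 and 10758 in humanized animals and at 10306, 5992 and 12956 against 28508 and 25270 in WT (−2.58, adjusted p = 0.618). Lpin1, which makes diacylglycerol, was at 37760, 42746 and 43559 against 23493, 32792 and 36019 and at 33203, 31144 and 38687 against 48315 and 62018 (−1.13, adjusted p = 0.597). The lipid droplet protein Cidec gave −0.71 (adjusted p = 0.75) and Plin3 gave 0.43 (adjusted p = 0.674).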

How the results depend on the processing

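Under 19 other settings, 5 of the 11 called genes stayed called in each one, namely Hoxa10, Hoxa11, Hoxa11os, Hmcn2 and B3galt1. Hoxa13 missed with a mean of at least 100, and Hoxc11 was below that filter. The count of autosomal genes called in humanized males against females, 11, was 10, 9, 11, 9, 11 and 9 with a pseudocount of 10 or 0.5, no filter, a mean of at least 100, rescaling and robust moderation. It was 26 with the 6 humanized libraries alone and 8 to 21 without 1 library. It was 17, 21, 17 and 17 without WT female replicate 4 or 5 or WT male replicate 4 or 5, which enter only the spread. With the replicate block it was 12, and Plekhb1 and Socs2 were the calls lost. The block changed no further call among the genes named. The WT count of 23 was 17 with the block, 6 with the 5 WT libraries alone, and 6 to 35 without 1 library. It was 12 without humanized female replicate 4, and 35, 14 and 14 without humanized male replicate 4, 5 or 6. It was 6, 15 and 7 without WT female replicate 4, 5 or 6, and 11 and 15 without WT male replicate 4 or 5. The difference between the pairs gave 0 to 6 calls without 1 library, with 1 without humanized male replicate 4, 2 without WT female replicate 5 and 6 without WT male replicate 4. The cause was not tested. Among the named genes 1 changed sign, Plin1, from 0.08 to −0.023, −0.060 and −0.014 without humanized female replicate 6 or humanized male replicate 5 or 6, with no call at any setting, and it reached 0.327 without humanized male replicate 4. With 1 WT male left out, the lone male was taken to vary like the other groups. The count test planned for recovered reads was not run.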

Other observations

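A set of autosomal genes, chosen after their values were seen, took 3 levels. Each female group stood at 1 level, while the libraries within each male group differed. Rpl29, a ribosomal protein gene, was at 2372, 3059 and 2283 in humanized females, 22085, 21556 and 12281 in humanized males, 12013, 11529 and 11853 in WT females, and 23313 and 2320 in WT males (humanized difference 2.82, limma adjusted p = 0.248, and 0.00269 or 0.00257 without WT male replicate 4 or 5). It was thus at the low level in 4 libraries, at a middle level in 4 and at the high level in 3. The predicted gene Gm8210 mirrored it, at 3543, 3771 and 3429, then 0, 0 and 1876, then 1680, 1970 and 1815, then 0 and 3730. Gm13841 repeated that order, with 3399 to 3740 in humanized females and 6.37, 6.96 and 1825 in humanized males. Gm10709, on chromosome 9 like Rpl29, went with Rpl29, at 1.08 to 3.67 in humanized females and 51.0 to 119 in humanized males. Such genes can share reads with near copies, so each value is uncertain.

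Efcab1 and Rap1gap, also chosen after their values were seen, lay just over the threshold. Efcab1 was at 132, 247.8 and 307 in humanized females and 0, 0 and 5.91 in humanized males (−6.83, limma adjusted p = 0.0568, 0.0464 without humanized male replicate 6 and 0.025 without WT female replicate 5). In WT it was at 22.6, 250 and 36.7 in females, highest in replicate 5, against 0 and 1.36 in males (−5.30, limma adjusted p = 0.144). Rap1gap, which switches off the small GTPase Rap1, was at 367, 564 and 372 against 164, 152 and 129 in humanized animals (−1.52, limma adjusted p = 0.0568), and at 530, 624 and 508 against 163 and 214 in WT (−1.56, limma adjusted p = 0.0654). All 6 female libraries lay above all 5 male ones for both Efcab1 and Rap1gap.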
